A study of Mus musculus with 15 samples.

Results

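Collagens are the main structural proteins of connective tissue, each built from 3 alpha chains wound into a triple helix. The genes described here are all rows of the deposited expression table whose symbol reads Col, a number, a and a number: 40 of 16809 genes. They comprise 11 fibrillar chains, 8 fibril-associated chains, 6 chains of the basement membrane network, 4 beaded-filament chains, 4 transmembrane collagens, 2 multiplexins, 2 short-chain network collagens and 3 others. Fibrillar collagens assemble into cross-banded fibrils that carry tension, fibril-associated collagens sit on their surface, and type IV chains form the sheet-like network under endothelium, epicardium and around muscle cells. Developing valve leaflets are known to make cartilage-type collagens (types II, IX and XI) beside the ordinary fibrillar ones. The rule reads the symbol only and uses no measured value.

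Mouse embryos at E14.5, all on a C57BL6/N background, gave the hearts, whose dissociated cells were profiled by Drop-seq, in which single cells are captured with barcoded beads and their polyadenylated RNA is counted by unique molecular identifiers (UMIs) near the 3′ end. There were 7 libraries of wild-type embryos (WT1 to WT7, named by replicate) and 8 of embryos homozygous for a knockout of Adamts19, which encodes a secreted metalloprotease. The knockout (KO) libraries carry the allele labelled tm4a (KO1 to KO4, litters 5 and 6) or tm4b (KO5 to KO8, all litter 7), and WT libraries come from litters 1 to 4. No litter holds both genotypes or both alleles, so genotype, allele and litter cannot be told apart, and p-values measure the spread between these libraries. The KO libraries and WT5 share a flow cell. The submitters count 7 and 8 mice, and the sources used here do not say what either allele deletes.

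The libraries held 5477109 to 11340443 UMIs, and 50775 cells were kept, with a median of 1328 to 2089 UMIs per cell across libraries. Of the kept cells' barcode sequences, 68 occurred in over 1 library. Adamts19 was at 15.8 to 49.9 CPM (UMI counts scaled to a total of 1000000 UMIs) in WT and 5.28 to 8.60 CPM in KO libraries, and LacZ, a reporter counted beside the mouse genes, was at 0 in every WT library and at 5.40 to 91.6 CPM in KO libraries. Both checks went with the labels, although a 3′ tag says nothing about a deletion elsewhere in the gene. Cells fell into 29 clusters, made without the collagen genes and named "X-like" from marker genes that include no collagen. Libraries KO6, KO8 and WT6 stood apart in 1 fibroblast-like cluster described further down, and KO4 held 3 and 0 cells of the smooth muscle-type mural clusters led by Clca2 and Fbln5, which had 35 to 302 and 6 to 57 cells in the other libraries.

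Collagen transcripts made up 0.495% ± 0.0961 of all UMIs in WT (mean ± SD, n = 7 libraries) and 0.570% ± 0.145 in KO libraries (n = 8). Fibrillar chains supplied 75.2% of all collagen UMIs over the 15 libraries, type IV chains 10.7% and fibril-associated chains 4.64%. In WT fibroblast-like cells the family reached 1.68% ± 0.207 of UMIs. The shares were 1.33% ± 0.222 in epicardial-like, 1.21% ± 0.176 in mural-like and 1.07% ± 0.161 in cells resembling valve interstitium, which fill the leaflets (valve interstitial-like). They were 0.450% ± 0.0604 in endocardial-like and 0.0687% ± 0.0163 in cardiomyocyte-like cells. Macrophage-like cells held 0.106% ± 0.0491 and erythroid-like cells 0.285% ± 0.216 (n = 5 libraries with at least 10 such cells), with Col3a1, Col1a2 and Col1a1 leading in both. As a working rule, a collagen level at or below the one in these blood cells is read as no more than background here. Whether these cells make collagen themselves was not tested. A CPM value counts 1 UMI per captured transcript, relative to all UMIs of the same cells, and needs no scaling by gene length.

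RefSeq promoter windows (GRCm38.p6, the 250 bases before the start site) were available for 31 of the 40 genes, 34 windows in all. They are shown for 5 fibril-building or fibril-coating genes that differed together between the KO alleles and whose window holds no annotated exon: Col3a1 (chr1:45311288-45311537, plus strand), Col5a1 (chr2:27886175-27886424, plus strand), Col11a1 (chr3:114030290-114030539, plus strand), Col27a1 (chr4:63215162-63215411, plus strand) and Col9a1 at its upstream start site (chr1:24177360-24177609, plus strand). Each is written 5′ to 3′ up to the base before the start site. Capitals mark, on either strand, the letters of the CCAAT box, of a TATA box read as TATAAA and of a GC box read as GGGCGG.
Col3a1: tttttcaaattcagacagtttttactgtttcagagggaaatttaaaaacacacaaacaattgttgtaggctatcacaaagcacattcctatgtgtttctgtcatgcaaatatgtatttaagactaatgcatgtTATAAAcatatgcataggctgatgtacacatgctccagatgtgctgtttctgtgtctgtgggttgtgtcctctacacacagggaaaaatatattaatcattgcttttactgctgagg
Col5a1: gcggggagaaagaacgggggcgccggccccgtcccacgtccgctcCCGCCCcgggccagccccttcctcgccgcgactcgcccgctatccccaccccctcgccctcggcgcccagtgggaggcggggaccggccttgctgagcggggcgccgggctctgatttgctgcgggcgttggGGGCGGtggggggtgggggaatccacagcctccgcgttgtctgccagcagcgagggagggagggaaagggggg
Col11a1: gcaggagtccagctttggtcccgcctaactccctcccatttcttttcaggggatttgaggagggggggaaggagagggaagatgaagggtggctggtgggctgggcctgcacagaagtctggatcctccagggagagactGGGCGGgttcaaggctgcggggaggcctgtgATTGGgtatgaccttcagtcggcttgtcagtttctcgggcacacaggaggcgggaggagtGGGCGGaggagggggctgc
Col27a1: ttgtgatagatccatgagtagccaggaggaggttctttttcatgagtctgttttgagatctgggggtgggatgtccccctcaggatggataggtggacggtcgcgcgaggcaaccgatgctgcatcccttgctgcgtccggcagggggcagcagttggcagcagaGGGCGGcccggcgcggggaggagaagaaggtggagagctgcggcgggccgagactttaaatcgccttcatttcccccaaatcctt
Col9a1: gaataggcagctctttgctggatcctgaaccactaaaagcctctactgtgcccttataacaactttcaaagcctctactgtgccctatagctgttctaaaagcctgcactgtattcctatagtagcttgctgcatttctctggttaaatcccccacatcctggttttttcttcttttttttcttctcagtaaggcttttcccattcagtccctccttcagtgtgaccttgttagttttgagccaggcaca
The 5 windows differ in these letters. The Col3a1 window holds a TATAAA beginning 117 bases before the start site and a GC content of 35.2%, whereas the Col5a1 window has 76.4% GC and GGGCGG at 205 and 73 bases. The Col11a1 window holds a CCAAT at 79 bases and GGGCGG at 110 and 19 bases, the Col27a1 window 1 GGGCGG at 85 bases, and the Col9a1 window none of the letters searched. Over all collagen windows GGGCGG was present in 20 of 34 (58.8%, against 32.7% of 32851 promoter windows of the same length), CCAAT in 12 (35.3% against 33.8%) and TATAAA in 4 (11.8% against 12.4%). These are matches of letters, not measured binding sites.

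The major fibrillar chains were the most abundant collagens in WT hearts. Col3a1, the single chain of type III collagen, was at 1413 CPM ± 320 over all cells, Col1a2 at 1005 ± 328 and Col1a1 at 754 ± 151, the last 2 being the chains of type I collagen (mean ± SD, n = 7 libraries, as for all WT levels that follow). Col3a1 was highest in fibroblast-like cells at 5841 CPM ± 985, ahead of mural-like (3898 ± 866), valve interstitial-like (3534 ± 722) and epicardial-like cells (3159 ± 738), and those last 3 did not differ beyond their spread. Col1a1 and Col1a2 were at similar levels in epicardial-like cells (3627 CPM ± 1242 and 4314 ± 580) and fibroblast-like cells (3281 ± 554 and 3843 ± 781), and lower in valve interstitial-like cells (1504 ± 190 and 2099 ± 540). The order of the chains therefore differed by class: Col3a1 led in valve interstitial-like, mural-like and fibroblast-like cells, Col1a2 in epicardial-like cells. In cardiomyocyte-like cells Col3a1, Col1a2 and Col1a1 were at 80.3 ± 35.2, 64.5 ± 28.4 and 53.1 ± 24.4 CPM, below the 263 ± 119, 215 ± 123 and 159 ± 77.4 CPM of macrophage-like cells. No test was made between classes, since they come from clustering the same cells.

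**Figure D1:**
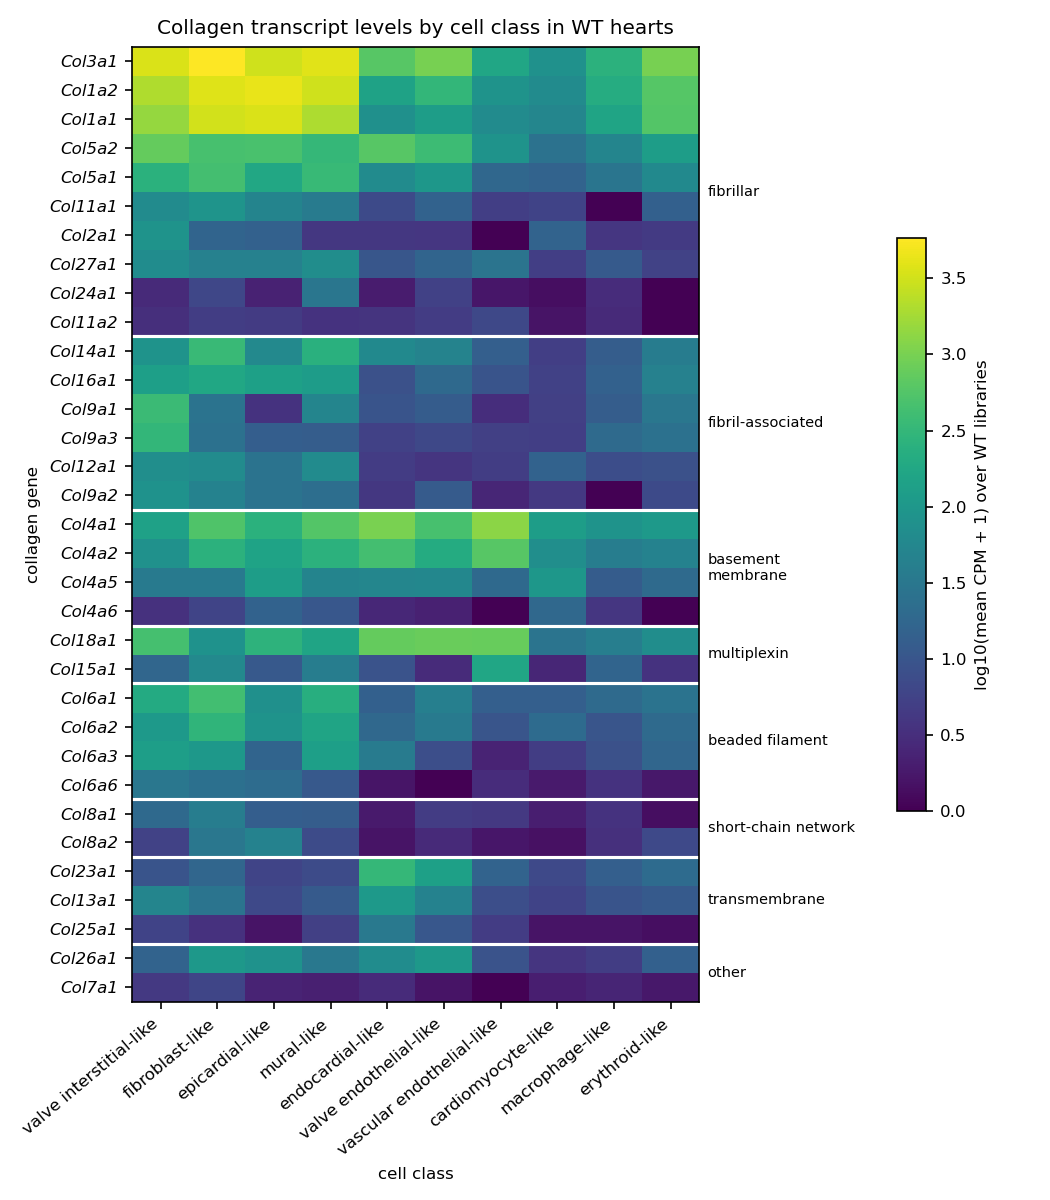
Mean level of 33 collagen genes with at least 100 UMIs in WT hearts (rows, grouped by subfamily) in 10 cell classes (columns), as log10(mean CPM + 1) over the WT libraries with at least 10 cells of the class. Most fibrillar rows are brightest in the 4 mesenchymal columns at the left. Col4a1 and Col4a2 are brightest in the vascular endothelial-like and endocardial-like columns, Col18a1 in the 3 endothelial columns, and Col9a1 and Col9a3 in the valve interstitial-like column.

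The regulatory fibrillar chains, which join type I and III fibrils and set their diameter, were spread differently. Col5a2 was highest in valve interstitial-like cells (750 CPM ± 142) and nearly as high in endocardial-like cells (612 ± 89.5), the lining that valve mesenchyme derives from. Its partner Col5a1 was highest in fibroblast-like cells (443 ± 198) and at 64.8 ± 25.8 CPM in endocardial-like cells, near the 59.8 ± 42.8 of erythroid-like cells. In endocardial-like cells Col3a1 was at 618 ± 183 CPM, between the macrophage-like (263 ± 119) and erythroid-like levels (979 ± 713), and Col1a1 at 76.8 ± 42.1, below both. Col27a1, a minor fibrillar chain known from cartilage, was at 70.4 ± 40.4 CPM in mural-like and 66.9 ± 28.6 in valve interstitial-like cells. Col24a1, another minor chain, had its highest mean in mural-like cells (28.7 ± 23.5 CPM, with 5.28 ± 4.23 in fibroblast-like cells next), which held 148 of its 223 WT UMIs. Its mural-like level ran from 2.98 to 69.0 CPM among the WT libraries. The lowest, in WT7, was below the fibroblast-like 5.35 and valve interstitial-like 6.40 CPM of that library.

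Most cartilage-type collagens were highest in valve mesenchyme. Col9a1, a chain of the fibril-associated type IX collagen, was at 367 CPM ± 79.8 in valve interstitial-like cells against 50.8 ± 35.6 in mural-like cells, the next class. Col9a3 was at 313 ± 67.9 against 24.6 ± 24.6 in fibroblast-like cells, Col2a1, the chain of type II collagen, at 84.9 ± 20.6 against 15.5 ± 33.2 (90.3 in WT6 and 0 to 10.4 in the other 6 WT libraries), and Col9a2 at 83.0 ± 23.9 against 46.0 ± 13.7. In every WT library Col9a1 and Col9a3 were higher in valve interstitial-like cells (lowest 267 and 226 CPM) than in any fibroblast-like sum (highest 71.4 and 76.8). A Col9a3 UMI was found in 868 of 2358 WT valve interstitial-like cells (36.8%, exact 95% interval 34.9 to 38.8, for counting error only), in 83 of 1988 fibroblast-like cells (4.18%) and in 11 of 517 macrophage-like cells (2.13%), at median depths of 1568, 2538 and 1408 UMIs per cell. Col2a1 UMIs were in 275 of the 2358 valve interstitial-like cells (11.7%) and 2 of the 517 macrophage-like cells (0.387%). The type XI chains did not follow: Col11a1 was highest in fibroblast-like cells (89.0 ± 23.3 CPM, valve interstitial-like 65.1 ± 17.1), and Col11a2 stayed at or below 5.60 CPM in every class.

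Col2a1 was also counted in cardiomyocyte-like cells at 14.6 CPM ± 5.23, between 8.40 and 22.1 in the WT libraries. That lies above macrophage-like (2.95 ± 5.05), erythroid-like (3.39 ± 4.72) and endocardial-like cells (3.03 ± 2.03). In vascular endothelial-like cells 0 of 570 cells had a UMI, which allows up to 0.645% of cells with a UMI by the exact interval. The SD of this level is 0, so a check by 1 SD cannot decide whether it depends on the clustering. Col9a1 showed no such excess in cardiomyocyte-like cells, at 4.23 ± 1.43 CPM against 11.7 ± 8.74 in macrophage-like cells.

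Type IV collagen split by cell class. Col4a1 and Col4a2, the chains of the common basement membrane network, were highest in vascular endothelial-like cells (1293 CPM ± 237 and 620 ± 104) and next in endocardial-like cells (1033 ± 177 and 434 ± 92.3), and together supplied 55.9% of the collagen UMIs of the former. Col4a5 was highest in epicardial-like (126 ± 28.4) and cardiomyocyte-like cells (96.2 ± 18.2) and lowest among the cardiac classes in vascular endothelial-like cells (18.1 ± 10.3). Col4a6, which pairs with Col4a5 in a minor network, was highest in cardiomyocyte-like cells (17.8 ± 3.88 CPM) with epicardial-like cells at 14.3 ± 11.7, and both genes exceeded the macrophage-like levels of 11.6 ± 9.62 and 3.00 ± 5.13 CPM. These pairs lie head to head on their chromosomes: the start sites of Col4a1 and Col4a2 on chromosome 8 are 21 bases apart and those of Col4a5 and Col4a6 on the X chromosome 1309 bases (GENCODE vM21). Another such pair, Col4a3 and Col4a4, with 72 bases between its start sites on chromosome 1, was scarcely detected, at most at 6.34 ± 6.71 and 6.09 ± 5.83 CPM, both in epicardial-like cells.

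The multiplexins, basement membrane-associated collagens that carry sugar chains, were highest in endothelial classes too. Col18a1, whose end fragment is endostatin, was at 802 CPM ± 117 in valve endothelial-like, 779 ± 123 in vascular endothelial-like, 740 ± 113 in endocardial-like and 451 ± 80.6 in valve interstitial-like cells. Col15a1 was at 166 ± 50.2 CPM in vascular endothelial-like cells and next in fibroblast-like (57.7 ± 29.3) and mural-like cells (38.4 ± 12.3). It was at 8.28 ± 5.62 in endocardial-like and 1.87 ± 3.66 in valve endothelial-like cells, below the macrophage-like 15.4 ± 20.3. Col18a1 thus varied little among the 3 endothelial classes, while Col15a1 was high only in the vascular one of them.

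Beaded-filament chains (type VI), which link cells to the surrounding matrix, were mesenchymal. Col6a1 and Col6a2 were highest in fibroblast-like cells (419 CPM ± 116 and 295 ± 72.2), and Col6a3, the long chain of the trimer, in mural-like (132 ± 70.4) and valve interstitial-like cells (127 ± 70.1). Endocardial-like cells held Col6a3 at 35.7 ± 17.7 CPM with Col6a1 at 13.3 ± 5.47, which is below the macrophage-like and erythroid-like levels of Col6a1 (19.0 ± 13.9 and 26.4 ± 13.1), the reverse of the order in fibroblast-like cells, where Col6a3 was at 101 ± 53.0. Among the other fibril-associated chains, Col14a1 was highest in fibroblast-like (358 ± 47.4) and mural-like cells (246 ± 66.9), and Col16a1 was nearly even over fibroblast-like, epicardial-like, valve interstitial-like and mural-like cells at 118 to 174 CPM. The short-chain network chains differed, with Col8a1 highest in fibroblast-like (38.1 ± 11.1) and Col8a2 in epicardial-like cells (45.8 ± 21.8).

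The transmembrane collagens Col23a1, Col13a1 and Col25a1 were highest in endocardial-like cells. Col23a1 was at 320 CPM ± 101 in endocardial-like and 139 ± 34.6 in valve endothelial-like cells but at 14.6 ± 10.1 in vascular endothelial-like cells. Col13a1 was at 108 ± 29.6 CPM and Col25a1 at a mean of 31.8 (15.9 to 53.7 among libraries) in endocardial-like cells, against 6.97 ± 7.78 and 3.63 ± 4.92 in vascular endothelial-like cells. Valve classes shared Col13a1, at 46.4 ± 21.1 CPM in valve endothelial-like and 32.7 to 93.1 among libraries in valve interstitial-like cells. Fibroblast-like cells held it at 26.7 ± 9.92 CPM. Col26a1 was shared by fibroblast-like (102 ± 25.9), valve endothelial-like (99.9 ± 36.5) and epicardial-like cells (82.7 ± 27.3). Col5a3, Col17a1, Col20a1, Col22a1, Col28a1, Col4a3 and Col4a4 had 23 to 103 UMIs each over all kept cells and were not tested over all cells, so nothing can be said of their regulation at this depth.

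Between genotypes, no collagen gene passed the test over all cells. Of 33 collagens tested, 0 were called at an edgeR adjusted p under 0.05 (quasi-likelihood test, Benjamini-Hochberg over all genes), where 0.208% of 13445 genes were. At an unadjusted p under 0.05 there were 4 of the 33, where 15.9% of all genes were, and 16 were above and 17 below 0, with a median log2 fold change of -0.02, equal to the median of all genes. DESeq2 also called 0. In bulk sums such as these, fewer cells of a type and less RNA per cell cannot be told apart.

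Col3a1 had the smallest p over all cells. It was at 1037, 1292 and 1883 CPM in the lowest, median and highest WT library and at 1371, 1731 and 3096 CPM in KO libraries, a log2 fold change of 0.45 (SE 0.15, edgeR adjusted p = 0.161). The groups overlap widely, with the highest values in KO6, KO7 and KO8. Col27a1 was at 9.29, 18.8 and 46.4 CPM in WT and 10.4, 13.9 and 20.2 in KO libraries, a log2 fold change of -0.61 (SE 0.22, edgeR adjusted p = 0.183). Col6a3 was at 38.3 CPM ± 25.0 (median 29.6, highest 90.3) in WT against 25.1 ± 9.05 (median 24.5, highest 37.7) in KO libraries (-0.63, SE 0.28, edgeR adjusted p = 0.281). For both genes WT1 alone held the highest value, well above the next WT library.

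The other abundant chains lay on top of each other between genotypes. Col1a2 was at 675, 892 and 1531 CPM in the lowest, median and highest WT library and 760, 1216 and 2026 in KO libraries (log2 fold change 0.33, edgeR adjusted p = 0.378), and Col1a1 at 754 ± 151 against 701 ± 202 (mean ± SD, -0.14, edgeR adjusted p = 0.694). Col5a2 was at 175 to 292 CPM in WT and 167 to 304 in KO libraries, Col4a1 at 272 to 431 and 266 to 381, and Col18a1 at 149 to 247 and 160 to 215. Col6a1 was at 60.7 to 131 against 54.9 to 105 CPM, Col6a2 at 43.4 to 109 against 48.9 to 88.2, and Col4a5 at 57.2 to 94.7 against 61.6 to 81.5. Each of these ranges in one genotype overlapped that in the other, as did those of the cartilage-type chains Col2a1 (11.3 to 26.7 against 12.5 to 31.6), Col9a2 (10.1 to 24.7 against 6.77 to 28.7), Col9a3 (24.7 to 69.3 against 19.3 to 35.1) and Col11a2 (0.594 to 3.60 against 0.704 to 3.51).

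In fibroblast-like cells Col3a1 came closest to the threshold. It was at 4714, 5580 and 7336 CPM in WT and 7210, 7935 and 10374 in KO libraries, a log2 fold change of 0.51 (SE 0.12, edgeR adjusted p = 0.0799). Only WT2, at 7336 CPM, overlapped the KO range. Col1a2 had a fold change of the same sign without passing (3108, 3562 and 5016 against 4004, 4842 and 6347 CPM, 0.41, SE 0.13, edgeR adjusted p = 0.143), and Col1a1 one near 0 (-0.13, SE 0.13, edgeR adjusted p = 0.706, 2121, 3384 and 3863 against 2459, 2918 and 3554 CPM). DESeq2 called both Col3a1 and Col1a2 in these cells, and edgeR called Col3a1 and Col15a1 without WT3 and Col1a2 without WT1 to WT4. Here 0 of 27 collagens were called, beside 0.236% of 8465 genes, and 5 had an unadjusted p under 0.05, beside 14.0%.

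The other mesenchymal and endothelial classes gave no called collagen. The background in them was 0.184% of genes in valve interstitial-like (0 of 25 collagens), 0.446% in epicardial-like (0 of 16), 0.0147% in mural-like (0 of 22), 0.262% in endocardial-like (0 of 17), 0.0215% in valve endothelial-like (0 of 13) and 0.0244% in vascular endothelial-like cells (0 of 8). The smallest p in valve interstitial-like cells was that of Col6a3, at 59.5, 116 and 266 CPM in WT and 49.3, 66.7 and 97.3 in KO libraries (log2 fold change -0.87, SE 0.24, edgeR adjusted p = 0.117). The cartilage-type chains of these cells overlapped: Col9a1 was at 267, 371 and 476 CPM in WT against 375, 458 and 536 in KO libraries (0.30, SE 0.14, edgeR adjusted p = 0.35), and Col2a1 at 51.4, 80.5 and 113 against 52.0, 73.5 and 116. Col6a3 was called without WT3, and with Col27a1 without WT1 to WT4. Unadjusted p-values were under 0.05 for 4, 2, 3, 2, 1 and 0 collagens in these 6 classes, in the same order, where 13.5%, 11.8%, 11.2%, 13.0%, 10.3% and 9.89% of genes were. DESeq2 called 0 collagens in each.

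In cardiomyocyte-like cells 2 of 24 collagens were called, both lower in KO, beside 1.29% of 11284 genes (0.576% lower). Another 8 had an unadjusted p under 0.05, 10 in all, beside 16.6% of genes. Col1a1 was at 27.2, 48.0 and 89.8 CPM in WT and 14.7, 26.4 and 39.6 in KO libraries (log2 fold change -1.04, SE 0.23, edgeR adjusted p = 0.0277). Col6a1 was at 7.22, 12.5 and 17.3 CPM against 5.72, 7.20 and 8.46 (-0.84, SE 0.18, edgeR adjusted p = 0.025). For both genes WT6 and WT7 fell inside the KO range and WT1 to WT5 lay above it. Both genes sat below their levels in macrophage-like cells (Col1a1 159 ± 77.4 CPM in WT and 230 ± 201 in KO, Col6a1 19.0 ± 13.9 and 19.0 ± 16.9), and 19 of the 24 collagens were below 0 (median -0.32, all genes -0.03). Of the fibroblast markers measured in the same cells, 1 of 8 was called, lower, with a summed level of 113 to 230 CPM in WT and 84.8 to 136 in KO libraries (median log2 fold change -0.55). Of the endocardial markers 1 of 11 was called, lower (94.7 to 178 against 80.7 to 119 CPM, median -0.79), and of the vascular endothelial markers 1 of 7, lower (203 to 354 against 229 to 370 CPM, median -0.13). The part of RNA from other cells in the result was not tested. With counts summed per litter, or without any 1 of WT2, WT5, KO5 and KO8, 0 collagens were called, and without KO2, KO6 or KO7 Col6a1 alone was. A flow cell covariate leaves WT5 as the only WT library beside the KO libraries, so that fit cannot decide.

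**Figure D2:**
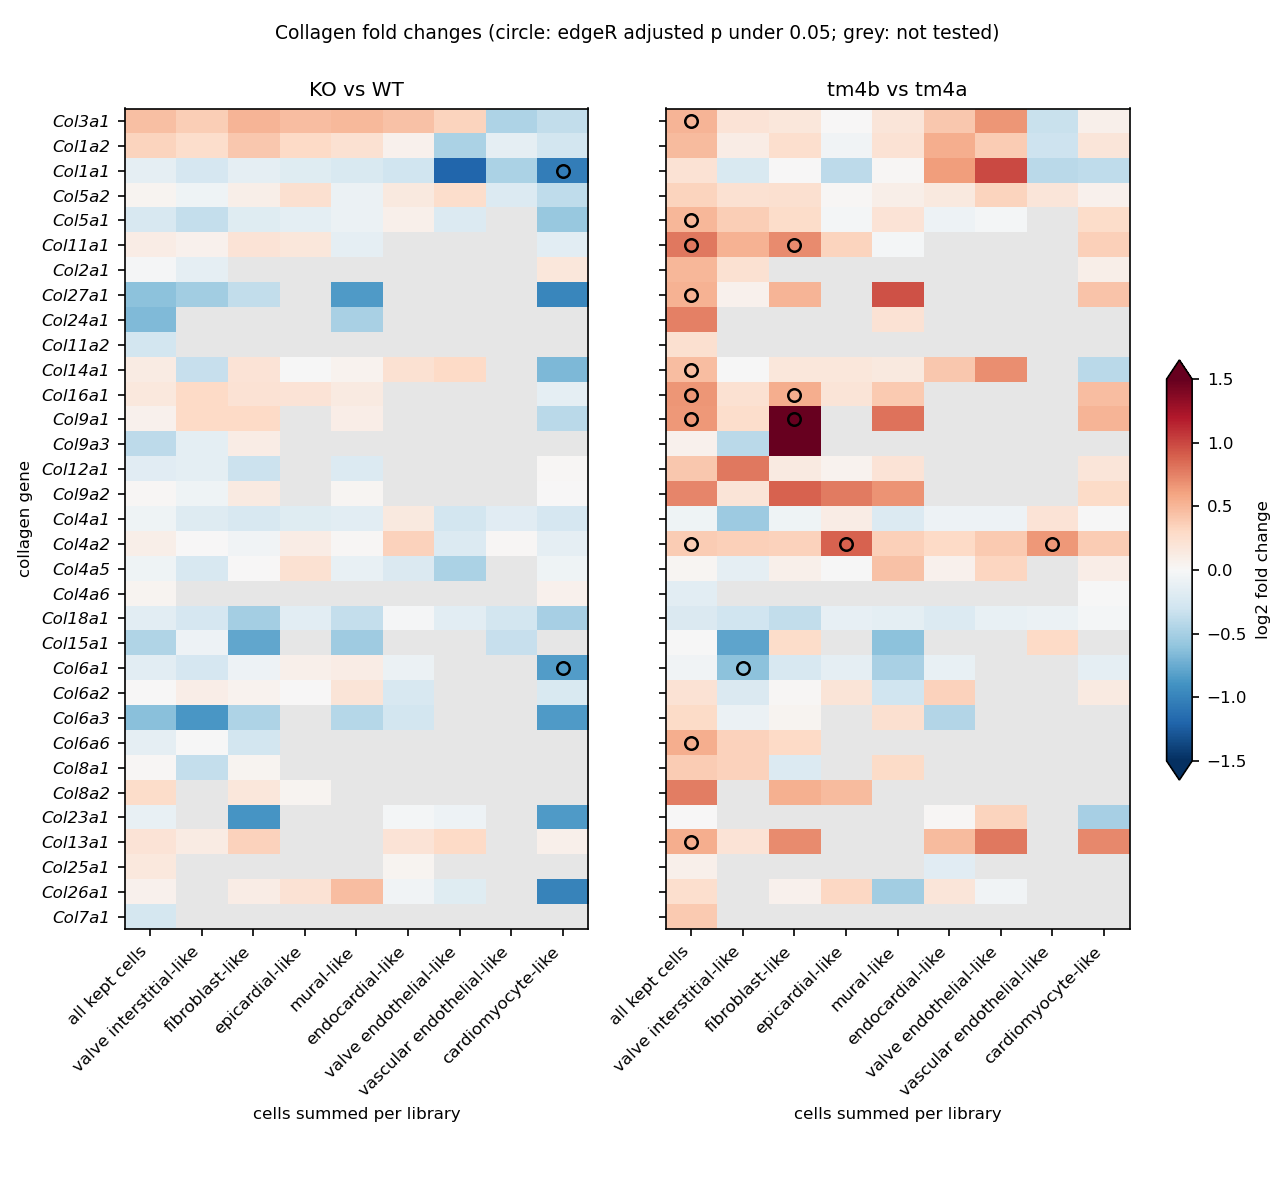
Log2 fold change of each collagen gene (rows) for KO over WT (left) and tm4b over tm4a (right) over all cells and in 8 cell classes (columns), from edgeR fits, with colours capped at 1.5 in either direction. Circles mark an adjusted p under 0.05 and grey marks genes not tested: the left panel has circles for Col1a1 and Col6a1 in cardiomyocyte-like cells, and the right panel has 10 in the column of all cells.

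Between the KO alleles, collagens differed over all cells, all in the same direction. Of 33 tested, 10 were called higher in tm4b (30.3%) and 0 lower, where 15.3% of 13531 genes were called, 7.92% higher and 7.39% lower. The median log2 fold change was 0.38 with 27 of 33 above 0, against a median of 0.02 and 51.9% above 0 over all genes. At an unadjusted p under 0.05 there were 17 collagens, beside 30.4% of genes. Col3a1, Col5a1, Col11a1 and Col27a1 are fibrillar, Col9a1, Col14a1 and Col16a1 fibril-associated, and Col4a2, Col6a6 and Col13a1 the other 3.

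Among the fibrillar chains, Col3a1 was at 1371, 1605, 1716 and 1518 CPM in KO1 to KO4 and at 1747, 2204, 2513 and 3096 in KO5 to KO8 (log2 fold change 0.51, SE 0.13, edgeR adjusted p = 0.0266). The groups do not overlap, but KO5 is close to the highest tm4a library. Col11a1, a type XI chain that nucleates fibrils, was at 17.9, 18.1, 18.6 and 15.8 CPM in tm4a and 21.9, 39.4, 33.6 and 37.6 in tm4b libraries (0.79, SE 0.16, edgeR adjusted p = 0.00914). Col27a1 was at 10.8, 11.3, 12.5 and 10.4 against 15.3, 17.0, 17.6 and 20.2 CPM (0.52, SE 0.12, edgeR adjusted p = 0.0152). Both separated the alleles. WT libraries held Col11a1 at 22.9 CPM ± 4.11, each below KO6 to KO8, and Col27a1 at 9.29 to 46.4, across both groups. Col5a1 overlapped between the alleles, at 64.6 to 99.0 CPM in tm4a and 91.4 to 152 in tm4b (0.50, SE 0.14, edgeR adjusted p = 0.0304).

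The fibril-associated chains showed the same split. Col9a1 was at 35.7, 34.6, 34.4 and 27.7 CPM in tm4a and 42.5, 63.2, 58.1 and 63.2 in tm4b libraries (0.65, SE 0.13, edgeR adjusted p = 0.00851), the smallest p of the family. Col16a1, found in many connective tissues, was at 34.0, 40.8, 38.8 and 45.8 against 47.4, 66.0, 71.7 and 87.9 CPM (0.66, SE 0.15, edgeR adjusted p = 0.016). Col14a1 was at 50.8 to 80.7 against 83.8 to 109 CPM (0.46, SE 0.12, edgeR adjusted p = 0.0218). KO5 held the lowest tm4b value for all 3 genes, and none overlapped. Col9a3, the partner of Col9a1, did not pass and overlapped (21.6 to 30.7 against 19.3 to 35.1 CPM).

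Outside the fibril genes, Col4a2 was at 113, 161, 152 and 154 CPM in tm4a and 210, 192, 201 and 212 in tm4b libraries (0.38, SE 0.10, edgeR adjusted p = 0.0251). Its head-to-head partner Col4a1 was at 266 to 363 against 277 to 381 CPM and was not called. Col13a1 was at 17.7 to 22.5 against 26.0 to 36.6 CPM (0.54, SE 0.13, edgeR adjusted p = 0.0222), and Col6a6, a minor type VI chain, at 4.64 to 5.44 against 7.14 to 9.36 (0.55, SE 0.16, edgeR adjusted p = 0.0348). All 3 separated the alleles. Among genes with at least 100 UMIs, every tm4b library lay above every tm4a library for 10 of 33 collagens and for 18.0% of 13040 genes, and below for 0 collagens and 5.61% of genes.

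The most abundant chains that were not called lay in part on the same side. Col1a2 was at 760 to 1274 CPM in tm4a and 1090 to 2026 in tm4b libraries (0.48, SE 0.17, edgeR adjusted p = 0.0808), and Col1a1 at 621 ± 174 against 781 ± 219 (mean ± SD, 0.22, SE 0.19, edgeR adjusted p = 0.484). Col5a2 was at 167 to 261 against 257 to 304 CPM and Col9a2 at 6.77 to 18.2 against 15.9 to 28.7, overlapping narrowly. Col6a1 (54.9 to 105 against 58.6 to 98.2), Col6a2 (48.9 to 76.0 against 59.4 to 88.2), Col4a5 (61.6 to 72.5 against 64.4 to 81.5) and Col18a1 (168 to 215 against 160 to 196) overlapped more widely, the last with a fold change below 0 (-0.22, SE 0.09, edgeR adjusted p = 0.106).

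**Figure D3:**
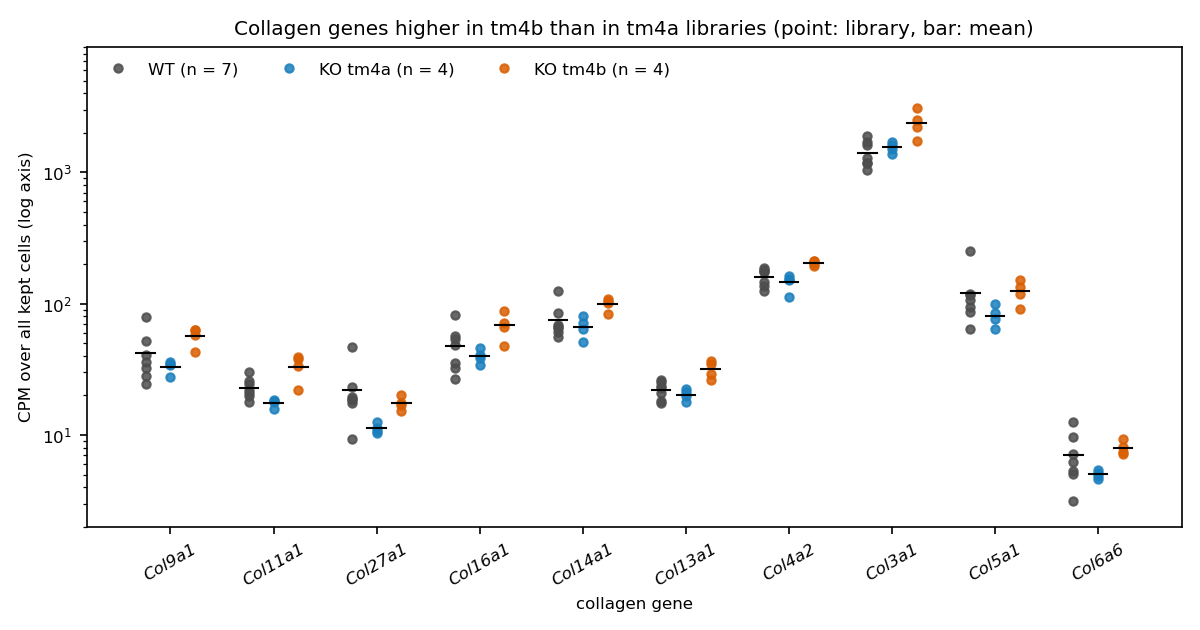
Level over all kept cells (CPM, log axis) of the 10 collagen genes called higher in tm4b than in tm4a, ordered by adjusted p, with 1 point per library and a bar at the group mean. The 4 tm4b points lie above the 4 tm4a points for every gene but Col5a1.

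These calls rested on few libraries. Without KO6, 6 collagens were called, and without KO7 or without KO8, 5 (Col9a1, Col11a1, Col13a1, Col16a1 and Col27a1). Col9a1, Col11a1, Col16a1 and Col27a1 were called on leaving out any 1 library. Without both KO6 and KO8, an alternative chosen after seeing the data, 0 collagens and 0 genes of any kind were called. That fit leaves only KO5 and KO7 for tm4b and calls no gene, so it cannot decide on the collagen calls in particular. With all 15 libraries in a 3-group fit 0 collagens were called. The share of all genes called in that fit is not given here, so no loss particular to collagens is read from it. Counts summed per litter cannot decide here, since all tm4b libraries come from litter 7 and give a single sum. Beside them, the 4 mesenchymal classes together held 27.9%, 31.6%, 34.5% and 21.5% of cells in KO1 to KO4 and 26.6%, 37.5%, 36.2% and 39.3% in KO5 to KO8. Valve interstitial markers were called higher for 4 of 10 genes (summed level 1158 to 1360 CPM in tm4a, 1203 to 1571 in tm4b), fibroblast markers for 1 of 9, epicardial for 1 of 13 and chondrocyte for 1 of 5 (summed level 15.4 to 31.9 against 23.7 to 49.5 CPM, median log2 fold change 0.63). Cardiomyocyte markers were called lower for 4 of 15, endocardial for 3 of 12 with 1 higher, and macrophage and valve endothelial for 1 each. The part of cell composition in the whole-heart result was not tested beyond the classes below.

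Within single classes far fewer collagens were called, and a smaller share of all genes. In fibroblast-like cells there were 3 of 26, all higher in tm4b (11.5%, beside 7.92% of 8722 genes, 3.78% higher). At an unadjusted p under 0.05 there were 12 collagens, where 2139 of the 8722 genes were. Of the 26, 22 were above 0, with a median log2 fold change of 0.25 (all genes 0.00, 50.5% above 0). Col11a1 was at 77.0, 77.8, 70.9 and 75.2 CPM in tm4a and 85.8, 174, 133 and 125 in tm4b (0.71, SE 0.18, edgeR adjusted p = 0.0218), and Col16a1 at 147, 163, 138 and 200 against 208, 216, 266 and 297 CPM (0.55, SE 0.14, edgeR adjusted p = 0.0246). Col9a1 was at 7.81, 10.6, 8.65 and 7.78 against 7.80, 88.7, 29.8 and 71.0 CPM (2.44, SE 0.57, edgeR adjusted p = 0.0157). Col11a1 and Col16a1 separated the alleles, whereas for Col9a1 KO5 lay within the tm4a range and KO6 and KO8 were highest. The count of called collagens was 1 without KO3, KO6 or KO8 and 5 without KO4 or KO5. It was 0 without both KO6 and KO8, an alternative that called no gene of any kind over all cells.

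The Col9a1 difference moved with 1 cluster. The fibroblast-like cluster led by Cxcl13, Dlk1 and Crabp1 held 67, 85 and 97 Col2a1 UMIs in WT6, KO6 and KO8, 3 in KO7, 1 in KO4 and 0 in the other 10 libraries, although it held 81 and 87 cells in WT1 and WT2 and 65 in WT6. In each of WT6, KO6 and KO8 15 cells of the cluster had a Col2a1 UMI, the richest with 17, 19 and 27, and 13, 15 and 13 of them also had Col9a1. Acan, the cartilage proteoglycan aggrecan, had 6, 14 and 20 UMIs in these 3 libraries and at most 1 in any other. Wif1, a secreted Wnt inhibitor, had 100, 220 and 95 and 0 elsewhere. Epithelial-like cells, led by Wfdc2, Epcam and Scgb3a2, numbered 5, 52 and 45 in WT6, KO6 and KO8, 9 in WT4 and 0 in the other libraries. Without this cluster, an alternative added after seeing the data, Col4a2 was the only collagen called in fibroblast-like cells, and the same 10 were called over all cells.

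**Figure D4:**
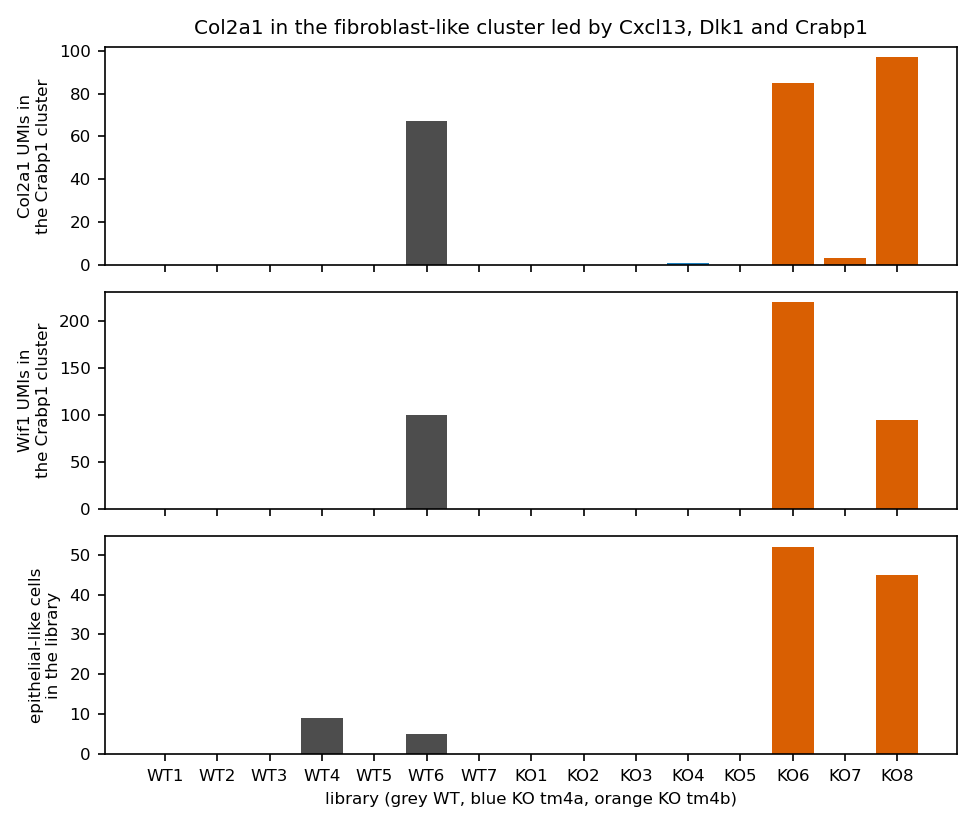
Bars give, for each of 15 libraries, the Col2a1 UMIs (top) and Wif1 UMIs (middle) in the fibroblast-like cluster led by Cxcl13, Dlk1 and Crabp1, and the number of epithelial-like cells (bottom). Col2a1 and Wif1 bars stand in WT6, KO6 and KO8, and the epithelial-like cells are mostly in KO6 and KO8.

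In 3 other classes 1 collagen each was called. Col6a1 was lower in tm4b valve interstitial-like cells, at 212, 187, 215 and 199 CPM in tm4a and 114, 146, 162 and 130 in tm4b libraries (-0.61, SE 0.14, edgeR adjusted p = 0.0257, 1 of 25 collagens beside 3.83% of genes, 1.85% lower). Col4a2 was higher in tm4b vascular endothelial-like cells, at 478, 540, 489 and 450 against 820, 690, 701 and 935 CPM (0.65, SE 0.14, edgeR adjusted p = 0.0258, 1 of 8 beside 1.29%, 0.596% higher). It was also higher in epicardial-like cells, at 79.1, 129, 66.0 and 177 against 244, 223, 195 and 205 CPM (0.88, SE 0.22, edgeR adjusted p = 0.0311, 1 of 18 beside 2.85%, 1.12% higher). None of these 3 overlapped between the alleles. At an unadjusted p under 0.05 there were 8 collagens in valve interstitial-like, 1 in vascular endothelial-like and 3 in epicardial-like cells. In the same order, 1728 of 7936, 794 of 4866 and 1090 of 5901 genes were. In erythroid-like cells Col4a2 was at 34.8 and 0 CPM in KO2 and KO4 and at 186, 177 and 126 in KO5 to KO7 (1 UMI in tm4a and 15 in tm4b), and the part of such RNA in the Col4a2 calls was not tested. The Col6a1 call and the vascular Col4a2 call were each lost without KO1, KO3, KO5 or KO8, and the epicardial one without any 1 library but KO2 and KO4.

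No collagen was called between alleles in mural-like (0 of 23, beside 3.58% of genes), endocardial-like (0 of 17, 0.639%), valve endothelial-like (0 of 13, 0.573%) or cardiomyocyte-like cells (0 of 22, 12.6%). At an unadjusted p under 0.05 these classes had 3, 3, 3 and 2 collagens, where 21.6%, 14.2%, 710 of 4884 and 27.9% of genes were, and DESeq2 called 0 in each. Without KO4 Col3a1 was called in mural-like and in endocardial-like cells and Col4a2 in cardiomyocyte-like cells, and without KO3 Col27a1 in mural-like cells. Col4a2 in cardiomyocyte-like cells had the smallest adjusted p of these classes, at 43.3 to 66.6 CPM in tm4a and 69.9 to 80.7 in tm4b (0.38, SE 0.13, edgeR adjusted p = 0.0625). Col3a1 in valve endothelial-like cells was next, at 796 to 1138 CPM in tm4a and 1297 to 1860 in tm4b (0.66, SE 0.16, edgeR adjusted p = 0.0711). In both the groups do not overlap. In erythroid-like cells Col3a1 was at 1012 ± 1086 CPM in tm4a (n = 2) and 2099 ± 483 in tm4b libraries (n = 3), and Col4a2 at 17.4 ± 24.6 and 163 ± 32.2. In macrophage-like cells of tm4b libraries Col3a1 was at 361 ± 167 CPM and Col4a2 at 35.7 ± 25.5. Valve endothelial-like Col3a1 and cardiomyocyte-like Col4a2 in tm4b libraries thus lay above the macrophage-like and below the erythroid-like means. They are not read as clear of background. The erythroid-like Col4a2 level of tm4b libraries rests on 15 UMIs.

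Ratios of partner chains within a library do not depend on its total or on how it is scaled. Type I collagen is built from COL1A1 and COL1A2 chains in one trimer. The Col1a1 to Col1a2 UMI ratio over all cells was 0.591, 0.697, 0.568, 0.935, 0.887, 0.817 and 1.01 in WT1 to WT7, 0.541, 0.584, 0.662 and 0.613 in tm4a and 0.474, 0.508, 0.517 and 0.508 in tm4b libraries. WT2 and WT4 to WT7 lay above every KO library and the tm4b libraries below all others. The tm4b libraries were also below all others in fibroblast-like cells (0.632 to 1.14 in WT, 0.586 to 0.744 in tm4a, 0.504 to 0.562 in tm4b) and valve interstitial-like cells (0.568 to 0.934, 0.498 to 0.605 and 0.425 to 0.469). They were not in mural-like cells (0.403 to 0.548 in tm4a, 0.410 to 0.450 in tm4b), epicardial-like cells (0.577 to 0.750 and 0.457 to 0.616) or endocardial-like cells (0.325 to 0.500 and 0.375 to 0.469). The endocardial-like ratio is not read as clear of background. In KO libraries Col1a1 was at 65.1 CPM ± 34.6 there, below the macrophage-like 230 ± 201 and the erythroid-like 452 ± 178. WT5, which shares the flow cell of the KO libraries, had 0.887 over all cells.

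The Col4a1 to Col4a2 ratio separated the alleles over all cells, at 2.35, 1.93, 2.38 and 2.19 in tm4a and 1.32, 1.53, 1.80 and 1.80 in tm4b libraries, with WT at 1.52 to 2.31. It did so in vascular endothelial-like cells too (2.00 to 2.40 against 1.16 to 1.90), in epicardial-like cells (1.30 to 2.80 against 1.01 to 1.17) and in valve interstitial-like cells (1.52 to 2.96 against 0.859 to 1.30). The alleles overlapped in fibroblast-like (1.88 to 2.53 against 1.29 to 1.91), mural-like (1.63 to 3.04 against 1.41 to 1.87) and endocardial-like cells (1.94 to 2.69 against 1.48 to 2.14). The Col9a1 to Col9a3 ratio went the other way, at 1.12 to 1.49 in tm4a and 1.80 to 2.20 in tm4b over all cells, with WT3 at 2.12 and the other WT libraries at 0.863 to 1.30. These ratios were not tested, and litter, allele and, for WT, flow cell cannot be told apart in them.

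**Figure D5:**
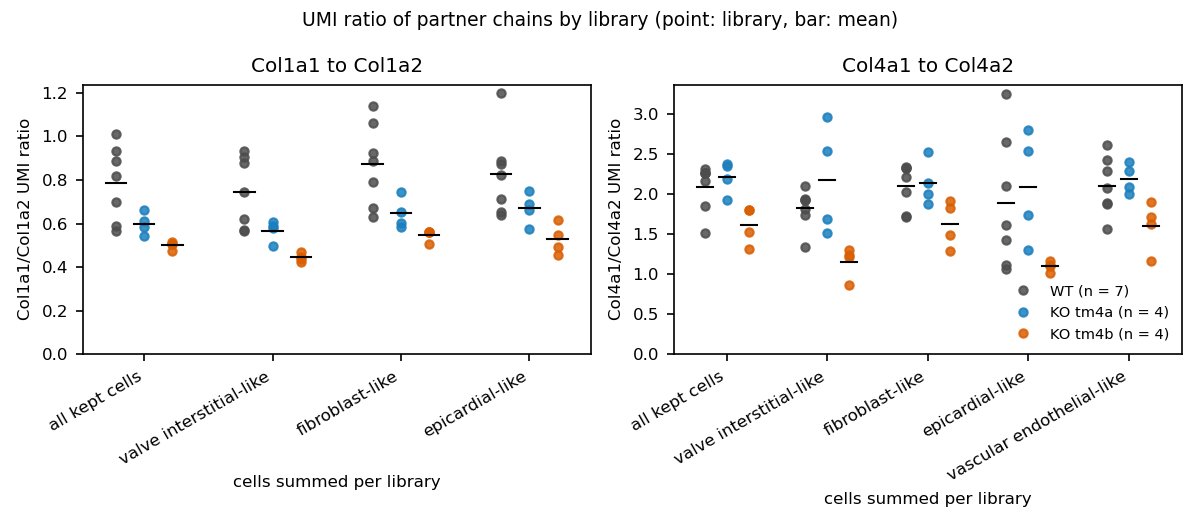
UMI ratio of Col1a1 to Col1a2 (left) and Col4a1 to Col4a2 (right) in each library, over all cells and by class, with a bar at the group mean. In the left panel the tm4b points lie below all others over all cells and in fibroblast-like and valve interstitial-like cells, and the WT points spread from 0.568 to 1.01 over all cells. In the right panel the tm4b points lie below the tm4a points over all cells.

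The genes that modify, fold, process, cross-link and bind collagen were read from 7 lists. Of 73 tested over all cells, 0 were called between KO and WT. The smallest p-values in the lists were those of Hspa5, an endoplasmic reticulum chaperone (log2 fold change 0.49, SE 0.12, edgeR adjusted p = 0.0639), Leprel2, a prolyl 3-hydroxylase (0.82, SE 0.20, edgeR adjusted p = 0.067), and Crtap, a partner of the prolyl 3-hydroxylases (-0.85, SE 0.24, edgeR adjusted p = 0.107). In the other lists the smallest p belonged to Loxl2, a lysyl oxidase (0.44, edgeR adjusted p = 0.138), Foxc1, a forkhead transcription factor (0.57, edgeR adjusted p = 0.196), Itga2, a collagen-binding integrin chain (0.45, edgeR adjusted p = 0.219), Tnxb, a tenascin (-0.46, edgeR adjusted p = 0.283), and Pcolce2 (0.34, edgeR adjusted p = 0.612). Leprel2 passed in fibroblast-like cells (0.93, SE 0.19, edgeR adjusted p = 0.0346), as did Loxl1, another lysyl oxidase, in valve interstitial-like cells, where it was lower (-0.94, SE 0.18, edgeR adjusted p = 0.0304).

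Between the alleles 14 of 73 were called over all cells, a share near the 15.3% called over all genes, so nothing particular to these lists is read from the total. The direction was uneven, and the lists were not tested as sets. In tm4b 12 were higher and 2 lower, where 1071 of 13531 genes were called higher and 1000 lower. By list these were 3 of 15 hydroxylation and glycosylation genes (Leprel2 by 0.60, Leprel4 by 0.62 and P4ha3 by 0.56 on the log2 scale, all higher), 2 of 14 folding and export genes (Fkbp9 higher, Serpinh1 lower), 3 of 7 propeptide-processing genes (Adamts2 and Bmp1 higher, Pcolce lower), 2 of 4 lysyl oxidases (Lox and Loxl2, higher), 1 of 9 receptors (Itgb1, higher), 1 of 13 fibril-binding partners (Matn2, higher) and 2 of 11 regulators (Foxc1 and Sox9, higher). Lox was at 43.2, 45.9, 68.3 and 17.7 CPM in tm4a and 66.2, 93.5, 130 and 141 in tm4b libraries (1.18, SE 0.30, edgeR adjusted p = 0.023), with KO3 above KO5. Serpinh1, the chaperone of procollagen, was at 1235, 1431, 1532 and 1092 against 1003, 1062, 1170 and 1274 CPM (-0.34, SE 0.10, edgeR adjusted p = 0.0436), which overlap. Pcolce, an enhancer of procollagen cleavage, was at 123 to 140 against 92.1 to 115 CPM (-0.42, SE 0.08, edgeR adjusted p = 0.00774) and lower in fibroblast-like (-0.61, SE 0.10, edgeR adjusted p = 0.00368) and valve interstitial-like cells too (-0.93, SE 0.17, edgeR adjusted p = 0.00831). Sox9, a transcription factor known to drive Col2a1 and other cartilage genes, was at 30.3 to 52.6 against 56.6 to 76.8 CPM (0.67, SE 0.15, edgeR adjusted p = 0.0139). Col2a1 itself was not called (12.5 to 16.6 against 13.8 to 31.6 CPM).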

How the data were processed

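The authors deposited UMI counts per gene and cell for whole hearts, 1 table joining 15 Drop-seq libraries, and these counts were used as deposited. The submitters' processing notes name mm10, Seurat 2.1 and bcl2fastq 2.17; aligner and counting settings: not given in the sources used here. Of 55152 barcodes, cells with at least 300 genes and at most 30% mitochondrial UMIs were kept. Scrublet marked 124 of 50899 cells (0.244%), too few to count as working, so doublets remain. Cells were clustered with scanpy 1.11.5 and leidenalg 0.10.2 (2000 variable genes without collagens, 30 components, resolution 1.0) and named from markers. Counts were summed per library and class and tested with edgeR 4.0.16 (TMM, filterByExpr, quasi-likelihood, Benjamini-Hochberg over all genes), checked on simulated data, and DESeq2 1.42.0 was an alternative. CPM values are counts divided by all UMIs of the same cells, and intervals cover counting error only. Other alternatives are given at the end. Values are given for collagens called in a comparison, the 12 most abundant in WT, cartilage-type collagens and the smallest p-values of a comparison, and for pathway genes called or with the smallest p of their list. The members and lists were chosen with earlier results of these data known. The fits without the Crabp1 cluster, without KO6 and KO8, and without WT6, KO6 and KO8 were added after seeing the data.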

Additional observations from a re-analysis of the deposited data

Results flagged for a closer look

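Over all cells, 66 groups of collagen levels (22 genes in WT, tm4a and tm4b libraries) were searched for a library far from the rest of its group, and 4 were found. Chance flags about 1 in 20 groups. WT1 held Col27a1 at 46.4 CPM and Col5a1 at 251 CPM, each far above the next WT library. WT5, on the flow cell of the KO libraries, held Col9a3 at 69.3 CPM, far above the other WT libraries, and 17.3% of its cells were valve interstitial-like, against 6.74% to 11.6% in the other WT libraries. KO4 held Col9a1 at 27.7 CPM, below the other tm4a libraries, and it is also the library with 3 and 0 cells in the smooth muscle-type mural clusters.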

How the results depend on the processing

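Counts of called collagens are given below where an alternative moved them by over 1.5 times, and the cause was not tested unless fewer libraries or sums show it. They are given without the share of all genes called, so no change particular to collagens is read from them. Between genotypes, a flow cell covariate sets WT5 alone against the KO libraries, so its counts are not read. The fit without WT1 to WT4 gave 2 in valve interstitial-like, 1 in fibroblast-like and 0 in cardiomyocyte-like cells. DESeq2 gave 2 in fibroblast-like and 5 in cardiomyocyte-like cells, and no low-count filter gave 1 in valve endothelial-like cells. In cardiomyocyte-like cells litter sums gave 0 and collagens among the variable genes gave 4. Between alleles, litter sums hold a single tm4b sum (litter 7), so their counts are not read. The 3-group fit gave 0 over all cells and in valve interstitial-like, epicardial-like, vascular endothelial-like and fibroblast-like cells. No low-count filter gave 2 in valve interstitial-like, 6 in fibroblast-like, 2 in mural-like and 1 in valve endothelial-like cells. Keeping called doublets gave 6 in fibroblast-like cells, collagens among the variable genes gave 1 in mural-like cells, and the fit without the Crabp1 cluster gave 1 in fibroblast-like cells. The fit without KO6 and KO8, which called no gene over all cells, gave 0 over all cells and in fibroblast-like cells. Leaving out 1 library gave 5 to 12 over all cells between alleles, 0 to 2 in valve interstitial-like, 1 to 5 in fibroblast-like, 0 to 2 in epicardial-like and 0 to 1 in mural-like, endocardial-like, vascular endothelial-like and cardiomyocyte-like cells. Between genotypes it gave 0 to 1 in valve interstitial-like, 0 to 2 in fibroblast-like and 0 to 3 in cardiomyocyte-like cells and 0 elsewhere. No fold change of a called collagen reversed in any of these fits. Replicate numbers did not pair WT with KO libraries: the correlation of same-numbered deviations ran from -0.527 to 0.140 and no library matched its own number best. With the replicate block 0 collagens were called over all cells and 0 in cardiomyocyte-like cells. WT levels by class stayed within 1 SD in 463 of 480 checks across clusterings. Of the 17 that did not, 13 were in mural-like cells (Col1a1, Col4a1, Col4a2, Col6a1, Col6a2 and Col18a1), the class whose levels depended most on the clustering. The other 4 were Col2a1 in vascular endothelial-like cells, where the level and its SD were 0. There the check counts any value as moved, so it cannot decide.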
